A study of Mus musculus with 12 samples.

Results

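Fc gamma receptors bind the constant part of IgG antibodies and tell a myeloid cell how to answer an antibody-coated target. Mouse Fcgr1 encodes the high-affinity receptor, Fcgr3 and Fcgr4 encode activating receptors of lower and intermediate affinity, and all of these need the common chain encoded by Fcer1g, whose ITAM (an activating tyrosine motif) is phosphorylated by Src family kinases and recruits Syk. Fcgr2b encodes the inhibitory receptor, which carries an ITIM (an inhibitory tyrosine motif) and recruits the phosphatase SHIP-1, so the balance of these genes sets the threshold for phagocytosis and cytokine release in monocytes, macrophages and neutrophils. The 5 genes were taken by symbol from the 24454 genes of the table, and all 5 were among the 11476 that were tested because their mean reached 10 normalized counts.

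The question was whether these genes differed between MLL-AF9 blasts that make both STAT3 isoforms (WT) and blasts that lack STAT3β (Δβ), in spleen (SP) and in bone marrow (BM). MLL-AF9 is a fusion oncogene of acute myeloid leukemia. Fetal liver cells of WT or STAT3β-deficient mice were transduced with a retrovirus encoding MLL-AF9 together with the fluorescent protein Venus, and Venus-positive cells were injected into young adult male NSG mice, which lack T, B and NK cells but keep myeloid cells of their own. Blasts of diseased recipients were sorted on Venus, and poly-A enriched RNA was sequenced from 3 WT SP, 3 Δβ SP, 3 WT BM and 3 Δβ BM libraries (12 in all). All 4 groups thus carried the oncogene and the reporter, and neither the labels nor the methods say which libraries share a recipient or a transformed culture, so the p-values measure the spread between these libraries only.

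The libraries held between 9001051 and 13859727 reads assigned to genes, of which 4 to 164 fell on Fcgr1 and at least 94 on every other member. The ribosomal RNA gene Rn45s took 2.48% of these reads in WT SP 2 and 2.41% in WT SP 3. In the other 10 libraries, WT SP 1 among them, it took 0.178% to 0.725%, and its part in the results was not tested. The labelled cell type was set beside marker genes. All 10 genes of a list for MLL-AF9 blasts (among them Hoxa9, Meis1 and Mpo) passed the filter. All 12 monocyte or macrophage and all 9 late neutrophil genes passed too, so passing does not tell these cells apart. Late neutrophil markers summed to 87986 to 388312 normalized counts and tissue macrophage markers to 3809 to 9636. Erythroid markers summed to at most 11.2, with 4 of 7 (the globin genes) at 0 in every library. T or NK cell markers summed to 2.24 to 273, B cell markers to 223 to 466, mast cell or basophil markers to 135 to 790 and megakaryocyte markers to 43.7 to 106. Libraries WT SP 1 and WT SP 2 stood apart in the monocyte or macrophage genes. These 12 genes summed to 152651 and 99785 normalized counts, against 31786 to 76279 in the other 10. The blast genes summed to 24176 and 31506 there, against 34466 to 131540. As a mean log2 deviation from each gene's mean over the libraries, the blast genes had -0.96 in WT SP 1. In WT SP 2 they had -0.15, near the -0.11 to 0.39 of the other 10. The results of the 5 genes and of the pathway lists in SP are therefore also given without WT SP 3 and without WT SP 1 and 2.

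Fcgr2b, Fcgr4, Fcgr3 and Fcer1g lie within 275.749 kb on chromosome 1 (GRCm38, GENCODE M21), and Fcgr1 lies on chromosome 3. Fcgr2b (NCBI gene 14130) spans 170958617 to 170976547 on the minus strand, Fcgr4 (NCBI gene 246256) 171018920 to 171029761 on the plus strand, Fcgr3 (NCBI gene 14131) 171051174 to 171064935 on the minus strand and Fcer1g (NCBI gene 14127) 171229572 to 171234365 on the minus strand. Fcgr1 (NCBI gene 14129) spans 96282909 to 96293969 on the minus strand. The transcripts of Fcgr2b and Fcgr3 share an identical stretch of 129 bases, and 11.7% of the 50-base windows of Fcgr2b and 12.8% of those of Fcgr3 occur in the other, so reads from there could be split or dropped and the levels of this pair are uncertain to that extent. No other pair of members shared a 50-base window.

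Sequences just upstream of a RefSeq start of each of the 3 activating receptor genes are shown. The products of these genes use the same chain while their levels and spread over the libraries were unlike. Each is the 200 bases before the RefSeq start (GRCm38.p6), 5′ to 3′ on the gene's strand, at chr3:96293970-96294169 for Fcgr1, chr1:171059404-171059603 for Fcgr3 and chr1:171018726-171018925 for Fcgr4. The Fcgr3 window lies inside the annotated gene. The transcript used for the level of Fcgr3 per kb starts further upstream, at 171064935, so this window does not lie before the start of that transcript. Capitals mark matches, on either strand, to TTCNNNGAA (the palindrome that STAT dimers bind), GAGGAAG (an ETS-type motif such as that of PU.1) and GAAANNGAA (an IRF-type motif).
Fcgr1: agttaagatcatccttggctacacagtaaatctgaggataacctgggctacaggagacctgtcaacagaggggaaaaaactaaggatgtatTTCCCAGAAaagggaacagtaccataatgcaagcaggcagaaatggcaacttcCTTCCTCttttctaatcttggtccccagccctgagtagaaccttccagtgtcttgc
Fcgr3: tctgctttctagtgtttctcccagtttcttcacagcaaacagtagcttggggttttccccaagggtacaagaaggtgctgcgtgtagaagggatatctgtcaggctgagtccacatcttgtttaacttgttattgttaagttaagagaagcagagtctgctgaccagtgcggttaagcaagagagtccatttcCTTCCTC
Fcgr4: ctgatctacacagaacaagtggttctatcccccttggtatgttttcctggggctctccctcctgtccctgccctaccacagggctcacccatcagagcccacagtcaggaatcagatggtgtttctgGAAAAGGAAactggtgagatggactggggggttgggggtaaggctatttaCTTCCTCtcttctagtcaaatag

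Over 250 upstream bases, Fcgr1 held the STAT-type letters 109 to 101 bases before its start and the ETS-type letters 56 to 50 bases before it. Fcgr3 held the ETS-type letters 7 to 1 bases before the start inside the gene, not that of the transcript used for its level. Fcgr4 held them 23 to 17 bases before its start, with the IRF-type letters at 73 to 65. Fcgr2b and Fcer1g held none of the 3. Of 27025 RefSeq promoters of the same length, 7.18% held the STAT-type, 10.4% the ETS-type and 7.16% the IRF-type letters. A match describes the letters only, and binding was not measured.

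Fcgr1, the high-affinity receptor, had the lowest level and the widest spread of the 5 genes. Its normalized count was 69.5, 9.54 and 8.12 in WT SP libraries 1, 2 and 3 and 127, 61.6 and 27.8 in the Δβ SP libraries. In BM it had 36.7, 5.63 and 9.06 in WT and 108, 37.4 and 4.14 in Δβ. The WT and Δβ values overlapped in each organ, and library 1 was the highest of its group in all 4 groups. Group means ran from 72.2 ± 50.5 (SD, n = 3) in Δβ SP over 49.7 ± 52.8 in Δβ BM and 29.1 ± 35.0 in WT SP to 17.1 ± 17.0 in WT BM, with overlap between all neighbours in that order.

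Fcgr4, the intermediate-affinity activating receptor of monocytes, macrophages and neutrophils, had 1926, 665 and 181 normalized counts in the WT SP libraries and 236, 248 and 155 in Δβ SP. The WT BM libraries had 96.2, 268 and 281, and the Δβ BM libraries 390, 289 and 97.4. WT SP 1 and WT SP 2 thus lay above all other libraries, and WT SP 3 lay within the range of Δβ SP. The mean was 924 ± 901 (SD, n = 3) in WT SP and 213 ± 50.5, 215 ± 103 and 259 ± 149 in Δβ SP, WT BM and Δβ BM.

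Fcgr3, the low-affinity activating receptor, had 4324, 3641 and 2314 normalized counts in WT SP and 2826, 1894 and 1688 in Δβ SP. In BM the WT libraries had 2169, 2856 and 2749 and the Δβ libraries 3203, 2409 and 1705. As with Fcgr4, WT SP 1 and 2 held the highest values of all libraries and WT SP 3 fell between the Δβ SP values. Group means were 3426 ± 1022 in WT SP, 2591 ± 370 in WT BM, 2439 ± 749 in Δβ BM and 2136 ± 606 in Δβ SP (SD, n = 3 each).

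Fcer1g, the common chain, had 6208, 4511 and 2412 normalized counts in WT SP and 2975, 2211 and 2342 in Δβ SP. WT BM had 2322, 2331 and 3093, and Δβ BM had 3726, 2744 and 1963. The chain followed the pattern of Fcgr3 and Fcgr4, high in WT SP 1 and 2 and within the Δβ SP range in WT SP 3. Means were 4377 ± 1901 in WT SP, 2811 ± 883 in Δβ BM, 2582 ± 443 in WT BM and 2509 ± 408 in Δβ SP.

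Fcgr2b, the inhibitory receptor, was the steadiest of the 5. Its normalized count was 1177, 1172 and 1336 in WT SP and 1469, 1004 and 1040 in Δβ SP. The WT BM values were 1073, 1219 and 1335, and the Δβ BM values 1692, 1040 and 1060. WT SP 1 and 2, which led for Fcgr3, Fcgr4 and Fcer1g, lay in the middle of the range of Fcgr2b, and the 4 group means lay between 1171 and 1264. Its highest library exceeded its lowest 1.69-fold, against 2.56-fold for Fcgr3, 3.16-fold for Fcer1g, 20.01-fold for Fcgr4 and 30.7-fold for Fcgr1.

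**Figure D1:**
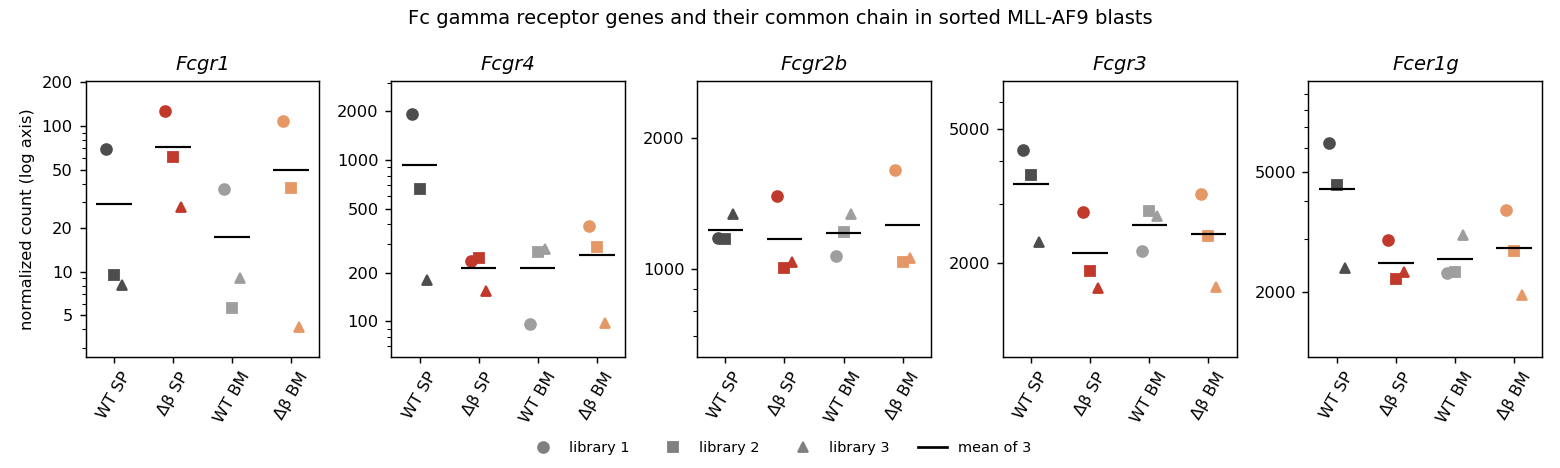
Normalized count (log axis, a separate range for each gene) of the 5 genes in the 12 libraries, by genotype and organ, with the marker shape giving the library number and the line the arithmetic mean of 3. WT SP libraries 1 and 2 lie at the top for Fcgr4 (1926 and 665), Fcgr3 and Fcer1g, but not for Fcgr2b (1177 and 1172).

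The spread of Fcgr1 over the 12 libraries (SD of log2(normalized count + 1)) was 1.63 and that of Fcgr4 1.18, and 98.1% and 95.2% of the tested genes had a smaller one. For Fcer1g (SD 0.49) the share was 76.2%, for Fcgr3 (0.42) 71.0% and for Fcgr2b (0.23) 38.5%. The median gene had an SD of 0.28. In bulk RNA, fewer cells that express a gene and less of its RNA per cell cannot be told apart, and this holds for every difference below.

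Δβ and WT blasts were compared with limma on log2(normalized count + 1), where the added 1 pulls the log2 fold changes of low genes toward 0. For Fcgr1 the estimate also depended on the fit. It was 1.70 in SP and 1.03 in BM in limma, 1.36 and 1.52 in edgeR, and 1.34 and 1.52 in DESeq2. A gene was counted as changed at a Benjamini-Hochberg adjusted p under 0.05 over all tested genes. In SP, 0 of the 5 genes passed, beside 0.105% of the 11476 tested genes (12 genes, 6 in each direction). The log2 fold change of Fcgr4 was -1.56 (standard error 0.78, 95% confidence interval -3.28 to 0.16, adjusted p = 0.368). For Fcgr4 in SP, DESeq2 gave -2.09 (adjusted p = 0.0553) and edgeR -2.07 (adjusted p = 0.238). In limma Fcer1g had -0.71 (standard error 0.32, adjusted p = 0.336) and Fcgr3 had -0.67 (standard error 0.29, adjusted p = 0.317). For Fcgr1 the value was 1.70 with an interval of -0.86 to 4.26 (adjusted p = 0.479), and for Fcgr2b it was -0.09 with an interval of -0.53 to 0.36 (adjusted p = 0.843). WT and Δβ values overlapped for all 5 genes in SP, while they did not overlap for 17.3% of the tested genes.

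In BM, 0 of the 5 genes passed either, beside 0.0697% of the tested genes (8 genes), and 0 of the 5 had groups without overlap, beside 7.63%. Every adjusted p was 0.99997 in limma. Log2 fold changes were 1.03 for Fcgr1 (95% confidence interval -1.53 to 3.59), 0.20 for Fcgr4 (-1.52 to 1.92), 0.09 for Fcer1g (-0.62 to 0.80), 0.03 for Fcgr2b (-0.41 to 0.48) and -0.12 for Fcgr3 (-0.76 to 0.51). The intervals for Fcgr1 and Fcgr4 hold changes of more than 2-fold in both directions, so these libraries did not resolve them, whereas for Fcgr2b a 2-fold change in either direction lies outside the interval in both organs.

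With the SP and BM library of a genotype and number averaged, 0 of the 5 genes passed (0.148% of all tested genes did), and log2 fold changes ran from -0.68 for Fcgr4 (adjusted p = 0.595) to 1.36 for Fcgr1 (adjusted p = 0.661). The genotype effect in SP minus that in BM was -1.75 for Fcgr4 (standard error 1.10), -0.80 for Fcer1g (0.46), -0.55 for Fcgr3 (0.40), -0.12 for Fcgr2b (0.29) and 0.67 for Fcgr1 (1.64). None of these differences passed (adjusted p from 0.926 to 0.960 in limma), so it was not shown that the genotype effect differs between the organs. With the replicate number as a block, the standard errors were 1.14 for Fcgr4, 0.45 for Fcer1g, 0.31 for Fcgr3, 0.14 for Fcgr2b and 0.69 for Fcgr1. None passed there either (adjusted p from 0.854 to 0.865 in limma). Over all genes 0.0% passed, with 367 genes at an unadjusted p under 0.05, 0 passing in edgeR and 3 in DESeq2.

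**Figure D2:**
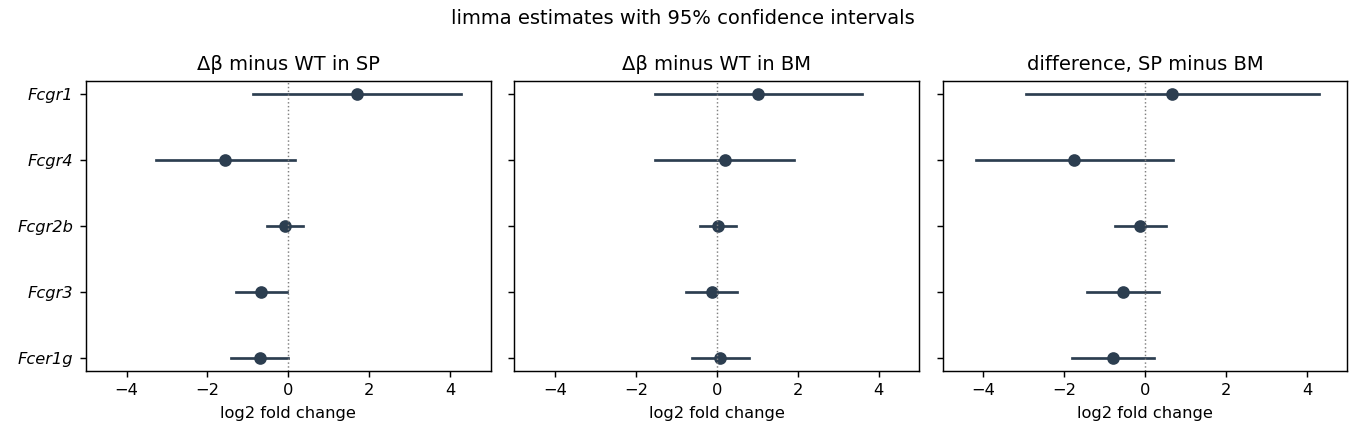
Log2 fold change from limma (point) with its 95% confidence interval (line) for each gene: Δβ minus WT in SP, the same in BM, and the SP effect minus the BM effect. The estimates for Fcgr4, Fcgr3 and Fcer1g in SP lie below 0 at -1.56, -0.67 and -0.71 and those in BM near 0, with wide intervals for Fcgr1 and Fcgr4.

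The SP result turned on the WT libraries. Without WT SP 3, Fcgr4 (log2 fold change -2.44, adjusted p = 0.0338), Fcer1g (-1.09, adjusted p = 0.0239) and Fcgr3 (-0.93, adjusted p = 0.0445) were lower in Δβ SP in limma, 3 of the 5 genes. In the same fit 16.4% of all tested genes passed (1886 of 11478, of which 1346 were lower), so the 3 genes were among many. Without WT SP 1 and 2, a choice made after seeing the data, WT SP was left with 1 library, assumed to vary like the other groups, and the estimates were 0.20 for Fcgr4, 0.04 for Fcer1g, -0.15 for Fcgr3, -0.21 for Fcgr2b and 2.75 for Fcgr1, with 0 of the 5 passing. Monocyte or macrophage genes moved with this result: their sum was 152651, 99785 and 39131 in WT SP 1, 2 and 3 and 37317 to 57086 in Δβ SP. Tissue macrophage genes summed to 9608, 7215 and 4178 in WT SP and 3809 to 5311 in Δβ SP, and late neutrophil genes to 196856, 316432 and 135585 against 87986 to 110266. In WT BM, where Fcgr4 had 96.2 to 281, monocyte or macrophage genes summed to 55068 to 65278. Tissue macrophage genes summed there to 7163 to 9636 and late neutrophil genes to 135910 to 388312. The part of these 3 lists in the result was not tested.

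**Figure D3:**
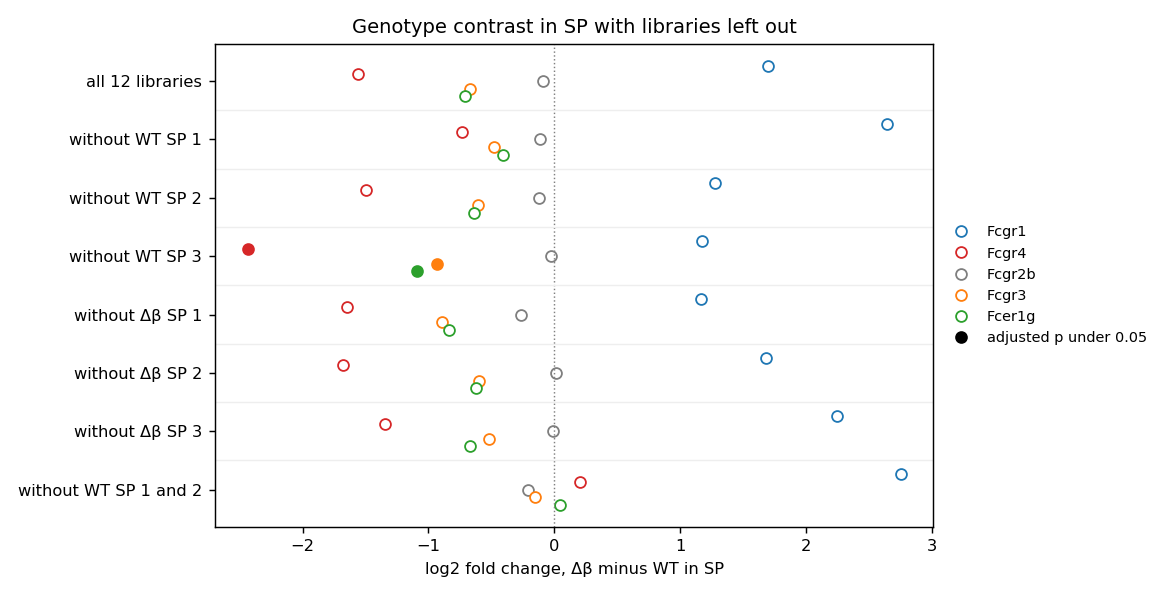
Log2 fold change of Δβ against WT in SP from limma, with all 12 libraries, with each SP library left out in turn, and with WT SP 1 and 2 left out together; filled points have an adjusted p under 0.05. Fcgr4, Fcgr3 and Fcer1g are filled only without WT SP 3 and lie close to 0 (0.20, -0.15 and 0.04) without WT SP 1 and 2.

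Between the organs, 0 of the 5 genes passed in WT and 0 in Δβ, as did 0.0% of all tested genes in each (949 and 203 genes had an unadjusted p under 0.05, edgeR passed 0 in both, and DESeq2 passed 111 and 2). SP minus BM in WT was 1.66 for Fcgr4 (standard error 0.78, adjusted p = 0.602), 0.67 for Fcer1g (standard error 0.32, adjusted p = 0.604), 0.48 for Fcgr1, 0.37 for Fcgr3 and 0.03 for Fcgr2b. In Δβ it was 1.14 for Fcgr1 and between -0.18 and -0.09 for the other four, with every adjusted p at 0.99996 in limma. The standard error for Fcgr1 in Δβ was 1.16. With the replicate number as a block it was 0.49 (unadjusted p = 0.051, adjusted p = 0.9999 in limma). SP and BM values overlapped for all 5 genes in both genotypes, beside 11.5% of all tested genes without overlap in WT and 7.42% in Δβ. Without WT SP 3, Fcer1g was higher in SP than in BM of WT (log2 fold change 1.05, adjusted p = 0.0472 in limma), while 5.21% of the tested genes passed.

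Levels of different genes were compared as normalized counts per kb of the transcript that the deposited identifier names. In 11 of 12 libraries the order was Fcer1g, Fcgr3, Fcgr2b, Fcgr4 and Fcgr1, and in WT SP 1 Fcgr4 passed Fcgr2b (1533 against 805 per kb). Fcer1g had 2912 to 9210 per kb and Fcgr1 1.6003 to 49.1. The common chain was at 1.48 to 2.51 times the summed level per kb of Fcgr1, Fcgr3 and Fcgr4, with a median of 2.02. WT SP 1, which had the highest levels of the chain (9210 per kb) and of its 3 receptors (4770 per kb), had a ratio of 1.93, within that range.

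Of the summed level per kb of the 4 receptors, Fcgr3 made up 57.6% to 66.9% in every library and Fcgr1 0.0686% to 1.47%. Fcgr4 made up 27.5%, 13.1% and 5.18% in WT SP 1, 2 and 3, against 3.15% to 8.52% in the other groups. The inhibitory Fcgr2b made up 14.4%, 19.9% and 32.9% in WT SP 1, 2 and 3 and 25.9% to 35.0% elsewhere. These shares depend on the length used: with the union of all annotated exons, which more than doubles the length of Fcgr2b (3.81 against 1.462 kb), Fcgr2b made up 6.08% to 17.1% and Fcgr3 63.2% to 81.2%, and the order of the 5 genes held in 10 of 12 libraries.

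**Figure D4:**
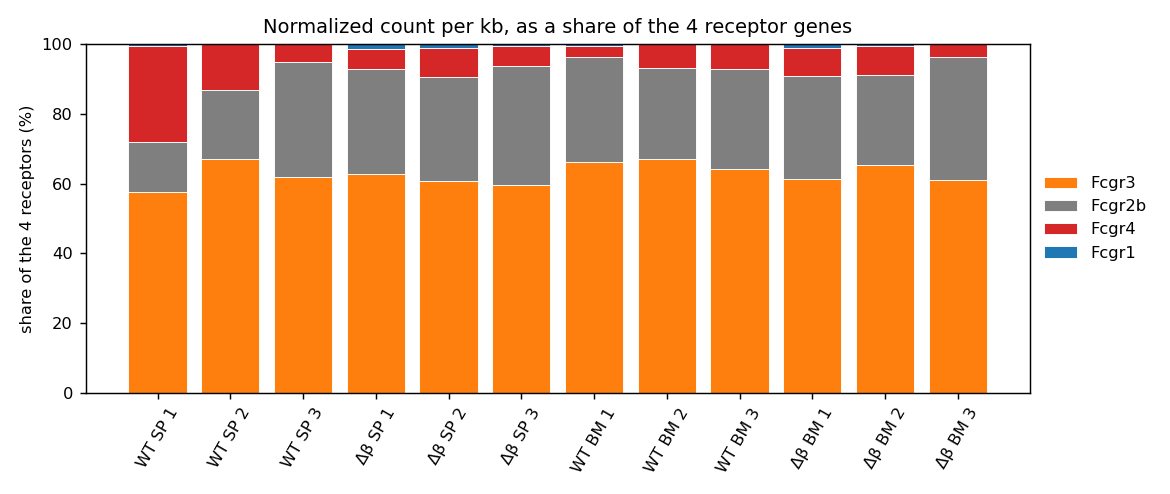
Share (%) of each receptor gene in the summed normalized count per kb of the 4 receptor genes, 1 bar per library. Fcgr3 makes up 57.6% to 66.9% of every bar, and Fcgr4 is widest in WT SP 1 (27.5%).

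The balance of an activating and the inhibitory low-affinity receptor was followed as the ratio of Fcgr3 to Fcgr2b within a library, which the scaling of the library does not affect. It was 3.67, 3.11 and 1.73 in WT SP and 1.92, 1.89 and 1.62 in Δβ SP, so WT SP 3 fell among the Δβ values. In BM it was 2.02, 2.34 and 2.06 in WT and 1.89, 2.32 and 1.61 in Δβ. On the log2 scale the mean ratio in SP was 0.85 ± 0.13 in Δβ and 1.43 ± 0.57 in WT (SD, n = 3), a difference of -0.58 (two-sided exact permutation p = 0.3). In BM it was 0.94 ± 0.26 in Δβ and 1.09 ± 0.12 in WT, a difference of -0.16 (two-sided exact permutation p = 0.4). With 3 libraries against 3 this test cannot give a p under 0.1, so it could not pass 0.05. With 1 library left out, the difference ran from -0.90 (without WT SP 3) to -0.36 (without WT SP 1) in SP and from -0.29 (without Δβ BM 2) to -0.029 (without Δβ BM 3) in BM. Without WT SP 1 and 2 together it was 0.060 in SP, against the single library WT SP 3.

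Over the 12 libraries, Fcer1g, Fcgr3 and Fcgr4 varied together, with Pearson's r of log2(normalized count + 1) at 0.93 between Fcer1g and Fcgr4, 0.90 between Fcer1g and Fcgr3 and 0.87 between Fcgr3 and Fcgr4. Without WT SP 1 and 2 these values were 0.74, 0.81 and 0.72 over 10 libraries. Fcgr2b had an r of 0.23 to 0.52 with these genes over 12 libraries and 0.55 to 0.82 over 10. Fcgr1 had an r of 0.23 to 0.35 with the other four over 12 libraries and 0.26 to 0.54 over 10, the highest with Fcer1g in both. The libraries share genotype, organ and possibly recipient, so these values describe the libraries and carry no p.

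The members were also set beside the mean log2 deviation of several gene lists. With 12 tested interferon-inducible genes Fcgr1 had an r of 0.82 (Spearman's rho 0.88), and 0.85 without WT SP 1 and 2. The other members had 0.12 to 0.32 with them over 12 libraries, and over 10 libraries Fcgr4 had 0.47, Fcer1g 0.41, Fcgr2b 0.20 and Fcgr3 0.085. Fcer1g, Fcgr4 and Fcgr3 went with the monocyte or macrophage genes (r = 0.97, 0.91 and 0.90), and without WT SP 1 and 2 the r was 0.88 for Fcer1g, 0.63 for Fcgr4 and 0.83 for Fcgr3. Their r with the blast genes was -0.83, -0.85 and -0.75 over 12 libraries and -0.48, -0.48 and -0.52 over 10. With the late neutrophil genes it was 0.72, 0.66 and 0.71 over 12 libraries and 0.59, 0.48 and 0.53 over 10. With the tissue macrophage genes it was 0.72, 0.55 and 0.76 over 12 libraries and 0.49, 0.075 and 0.59 over 10. With the monocyte or macrophage genes Fcgr1 had an r of 0.39 and Fcgr2b of 0.27 over 12 libraries, and 0.60 and 0.66 over 10, close to the 0.63 of Fcgr4. How far the members differ in their likeness to this list thus depended on WT SP 1 and 2.

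**Figure D5:**
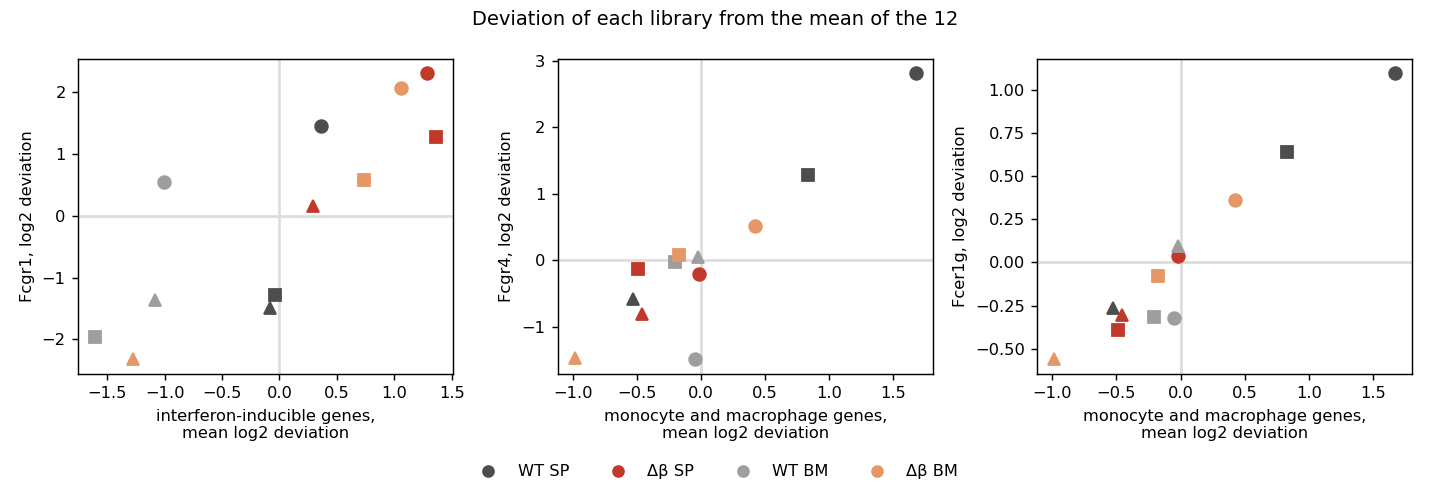
Log2 deviation of a member from its mean over the 12 libraries (vertical) against the mean log2 deviation of a gene list (horizontal), with Fcgr1 against interferon-inducible genes and Fcgr4 and Fcer1g against monocyte or macrophage genes; colour gives the group and marker shape the library number (circle 1, square 2, triangle 3). Fcgr1 is higher where the first list is higher (r = 0.82), and WT SP 1 and 2 lie at the upper right for Fcgr4 and Fcer1g.

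The single genes most like each member by Pearson's r over the 12 libraries were the following, members left out. For Fcgr1 they were Rasa4 (r = 0.95, Spearman's rho 0.97), Mcts1 (0.93, 0.85) and Sub1 (0.93, 0.92). Fcgr4 was followed most closely by Lilr4b, a receptor of the leukocyte immunoglobulin-like family (0.98, 0.96), Rnh1 (0.96, 0.82) and the pan-leukocyte tetraspanin Cd53 (0.96, 0.96). Fcgr3 was followed by Sidt2 (0.96, 0.93), Yipf1 (0.96, 0.98) and Ms4a8a (0.95, 0.96). For Fcer1g the leading genes were Ptprc, which encodes CD45 (0.98, 0.90), Pqlc3 (0.98, 0.95) and the kinase gene Jak1 (0.98, 0.97). Fcgr2b had Tmem220 (0.90, 0.84), 9930021J03Rik (0.86, 0.89) and the IL-2 receptor chain Il2rb (0.85, 0.69).

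Of the nearest annotated genes on each side of the members, the following are given as a description. Bola1, next to Fcgr1, had 107 to 208 normalized counts over the 12 libraries. The low neighbours were Apoa2 (0 to 7.98), Cfap126 (3.02 to 25.1), Fcrla (0 to 6.41) and Terc (0 to 5.60). Mir6546, whose annotation overlaps that of Fcgr3, had at most 1.14.

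Other receptors that signal through the common chain or through its relative Tyrobp had the lowest median of the pathway lists. The list holds 13 genes, of which 12 were in the table, 10 were tested and 0 passed in either organ. Without WT SP 3, 6 of the 10 passed in SP, all lower (median -2.59), beside 16.4% of all tested genes. Without WT SP 1 and 2 the median was -0.33. With all libraries, all 10 had a log2 fold change below 0 in SP (median -1.73, against -0.01 over all tested genes) and in BM (median -0.50, against -0.02). Values of WT and Δβ did not overlap for 6 of them in SP, all lower in Δβ, and for 2 in BM, beside 17.3% and 7.63% of all tested genes. Clec4d, a C-type lectin that pairs with the common chain, had the lowest value, -2.50 in SP (standard error 0.70, adjusted p = 0.218 in limma), with 71.0 to 585 normalized counts in WT SP and 39.5 to 60.9 in Δβ SP. In BM it had 93.5 to 186 in WT and 23.8 to 66.3 in Δβ (log2 fold change -1.71, adjusted p = 0.99997 in limma). Cd300lb, the most abundant of the list and the one nearest to 0 in SP, had -0.54. The summed level of the list ranged from 5073 to 15399 in WT SP and from 3263 to 4002 in Δβ SP. WT SP 1 had the highest sum of this list and of the monocyte or macrophage genes, whose part in the result was not tested.

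Among ITAM adaptors (5 genes, 4 tested, 0 passed), Tyrobp was the most abundant, with 8216 ± 2781 normalized counts in WT SP and 5994 ± 367 in Δβ SP (log2 fold change -0.39, adjusted p = 0.463 in limma) and 0.04 in BM. The B cell receptor chains Cd79b (0.42) and Cd79a (-1.18, at 4.06 to 31.9 counts in WT SP) had the highest and lowest values in SP. Without WT SP 3, 2 of the 4 passed in SP, both lower, beside 16.4% of all tested genes. Without WT SP 1 and 2 the median of the 3 then tested was 0.20. Other Fc receptors and Fc receptor-like genes were mostly low: 4 of 14 were tested and 0 passed, and Fcamr, Pigr and Fcrl6 had no reads in any library. Trim21, the cytosolic antibody receptor, was the most abundant and had 259 to 344 normalized counts in WT SP and 412 to 536 in Δβ SP, without overlap (log2 fold change 0.70, standard error 0.19, adjusted p = 0.218 in limma), and 0.13 in BM. It was the 1 of the 4 without overlap in SP, beside 17.3% of all tested genes. Fcrl1 had -0.74 in SP. Without WT SP 3, 1 of the 4 passed, lower in Δβ SP, beside the same 16.4%. Without WT SP 1 and 2 the median of this list was 0.73.

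Kinases of the pathway (15 genes, 14 tested) had medians of -0.30 in SP and -0.04 in BM on the log2 fold change scale, and 0 passed. Without WT SP 3, 6 of the 14 passed in SP, all lower (median -0.49), beside 16.4% of all tested genes. Without WT SP 1 and 2 the median was 0.0092. Fgr, a Src family kinase of mature myeloid cells, had 1904 to 7025 normalized counts in WT SP and 1556 to 1808 in Δβ SP (-1.30, adjusted p = 0.259 in limma) and -0.18 in BM. Prkcd, the most abundant, had -0.30 in SP, and Tec had the highest value, 0.14. Adaptors and effectors (21 genes, 20 tested, 0 passed) had medians of -0.26 in SP and -0.09 in BM. Of these, 5 of the 20 passed in SP without WT SP 3, all lower (median -0.36), beside the same 16.4%. Without WT SP 1 and 2 their median was 0.019. Rac2, a small GTPase of the phagocyte oxidase and the most abundant, had -0.32 in SP (adjusted p = 0.388 in limma), without overlap of the groups, and 0.14 in BM. In SP 2 of the 20 had groups without overlap, beside 17.3% of all tested genes. The ubiquitin ligase gene Cblb had -0.99 and the adaptor gene Lat2 0.16 in SP.

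On the inhibitory side, the phosphatases and Dok adaptors that act downstream of ITIM receptors (9 genes, all tested, 0 passed) had medians of -0.32 in SP and -0.14 in BM, and 4 in SP and 3 in BM were lower in Δβ without overlap, beside 17.3% and 7.63% of all tested genes without overlap. In SP 6 of the 9 passed without WT SP 3, all lower (median -0.54), beside 16.4% of all tested genes. Without WT SP 1 and 2 the median was 0.080. Dok2 had 344 to 1215 normalized counts in WT SP against 235 to 270 in Δβ SP (-1.42, standard error 0.36, adjusted p = 0.205 in limma) and 255 to 404 against 184 to 226 in BM (-0.65). Ptpn6, which encodes SHP-1 and was the most abundant, had -0.29 in SP and -0.17 in BM, and the SHIP-2 gene Inppl1 had 0.03 in SP and -0.65 in BM. Other ITIM-bearing myeloid receptors (16 genes, 15 tested, 0 passed) had medians of -0.75 in SP and -0.11 in BM. In SP 5 of the 15 passed without WT SP 3, all lower (median -1.18), beside the same 16.4%. Without WT SP 1 and 2 the median was 0.096. Lilr4b had the lowest value in SP, -1.62 (adjusted p = 0.355 in limma), Clec12a, the most abundant, had -0.09, and Pecam1 had the highest, 0.69 (adjusted p = 0.275), with 1046 to 1184 in WT SP and 1404 to 2517 in Δβ SP.

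Interferon-inducible genes (15 genes, 12 tested) were listed because Fcgr1 is a known interferon target. In BM 1 of 12 passed, beside 0.0697% of all tested genes, and in SP 0 of 12, beside 0.105%. The medians were 0.88 in BM and 0.67 in SP, against -0.02 and -0.01 over all tested genes. In SP 3 of the 12 passed without WT SP 3 (2 higher and 1 lower, median 0.47), beside 16.4% of all tested genes. Without WT SP 1 and 2 the median was 1.26. Ube2l6, an ISG15-conjugating enzyme, rose in Δβ BM from 33.8 ± 17.6 to 403 ± 138 normalized counts (log2 fold change 3.65, adjusted p = 0.00891 in limma), and over both organs it also passed (3.00, adjusted p = 0.0155). In SP it had 71.7 ± 10.1 in WT and 366 ± 32.0 in Δβ (2.34, adjusted p = 0.0673 in limma). Gbp2, an interferon-inducible GTPase, had 20.1 to 113 in WT SP and 267 to 2303 in Δβ SP (4.84, adjusted p = 0.218), and 10.9 to 15.1 against 28.0 to 1349 in BM (4.76, adjusted p = 0.99997 in limma). The feedback inhibitor Socs3 had -2.69 in SP and 0.87 in BM. The Δβ libraries with the highest Fcgr1, number 1 in SP (127) and in BM (108), had list sums of 12143 and 9994. Δβ SP 2, with the highest sum of all libraries (13085), had 61.6 of Fcgr1, and Δβ BM 2 had 37.4 at a sum of 8974. Δβ BM 3, with the lowest Fcgr1 (4.14), had a sum of 3268. WT SP 1 had 69.5 of Fcgr1 at a sum of 6241, and WT BM 1 had 36.7 at a sum of 3588. WT SP 2 had 9.54 of Fcgr1 at a sum of 4405 and WT SP 3 had 8.12 at 3707. WT BM 2 had 5.63 at the lowest sum, 2602, WT BM 3 had 9.06 at 3163, and Δβ SP 3 had 27.8 at 4852. T or NK cell markers summed to 125 in Δβ SP 1 and 273 in Δβ BM 1, against at most 33.1 in the other 10 libraries, and their part in the level of Fcgr1 was not tested.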

How the data were processed

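Titles gave the genotype, organ and replicate number of the 12 libraries (3 in each of 4 groups). The deposited values are a signal: the authors divided each gene's count by a size factor common to the library. The submitters' processing notes name FastQC, STAR, featureCounts and DESeq2 with GRCm38 (mm10), without versions. Every deposited value was a whole multiple (tolerance 0.01) of what 1 read was worth there, 0.775 to 1.17, so 100% of the reads were recovered as whole numbers. The deposited scaling sets each value relative to the other genes of its library. A further 6 columns of the table match no sample title and were left out.

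Genes with a mean of at least 10 were tested with limma 3.58.1 (lmFit, eBayes with trend, R 4.3.3) on log2(normalized count + 1), with 1 mean per group and Benjamini-Hochberg adjustment over 11476 genes. In a test on simulated data with 11369 genes of the SP comparison, limma recovered 43 of 100 planted changes of 1 on the log2 scale and 79 of 100 of 2, with 7 false calls. The main choices were varied: the pseudocount (0.25 or 4), the filter (none, or a mean of 50), the scaling (TMM or quantile), no trend, edgeR 4.0.16 and DESeq2 1.42.0 on the recovered reads, a fit of only the groups compared, a block for the replicate number, a minimum absolute log2 fold change of 1, each library left out in turn and, for both organs together, separate libraries and duplicateCorrelation. Leaving out WT SP 1 and 2 together and using exon unions as lengths were added after seeing the data.

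The labels do not say what a shared number means. Deviations from the group mean correlated between SP and BM of the same number in Δβ (r = 0.61 to 0.66, all 3 pairs), which was taken as pairing of the Δβ libraries across organs, but not in WT (r = -0.24 to -0.0094) nor between genotypes. The 3-read floor was a chosen setting, counting error was not estimated, and no molecular identifiers are known. Positions are from GENCODE M21, promoters from RefSeq on GRCm38.p6, and all 5 members were matched.

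The members, pathway lists and marker lists were chosen with earlier results of these data known. Named were the 5 members, from each pathway list each gene with an adjusted p under 0.05 in any comparison, the most abundant and the highest and lowest log2 fold change in SP, the 3 genes most like each member, and the nearest gene on each side. The values of 2 genes that this rule names are not reported here. Motifs were chosen after seeing the values.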

Additional observations from a re-analysis of the deposited data

How the results depend on the processing

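Leaving out WT SP 3 changed the number of members that passed, which ranged from 0 to 3 in SP and from 0 to 1 between the organs of WT over the libraries left out in turn; in the other comparisons and under the other alternatives it remained 0. The estimates of Fcgr3 (-0.93), Fcgr4 (-2.44) and Fcer1g (-1.09) in SP and of Fcer1g between the organs of WT (1.05) passed only there. Without WT SP 1 and 2 together the sign turned for Fcgr4 (0.20) and Fcer1g (0.045) in SP, for Fcgr4 (0.26) and Fcer1g (0.083) over both organs, for Fcgr4 in the difference between organs (0.0060), and for Fcgr1 (-0.58), Fcgr3 (-0.15), Fcgr4 (-0.10) and Fcer1g (-0.085) between the organs of WT. Quantile scaling turned Fcgr2b in SP (0.014), over both organs (0.030) and between the organs of WT (-0.047). edgeR and DESeq2 turned Fcgr2b over both organs (0.024 and 0.024) and Fcgr1 in the difference between organs (-0.16 and -0.18). With 1 library left out, ranges that crossed 0 were -0.26 to 0.012 for Fcgr2b in SP; -0.20 to 0.15 for Fcgr2b, -0.34 to 0.11 for Fcgr3, -0.30 to 0.79 for Fcgr4 and -0.14 to 0.32 for Fcer1g in BM; -0.062 to 0.0054 for Fcgr2b and -1.40 to 0.039 for Fcgr4 over both organs; -0.55 to 1.65 for Fcgr1 and -0.29 to 0.11 for Fcgr2b in the difference; -0.47 to 1.21 for Fcgr1 and -0.057 to 0.10 for Fcgr2b between the organs of WT; and -0.074 to 2.13 for Fcgr1, -0.27 to 0.14 for Fcgr2b, -0.42 to 0.039 for Fcgr3, -0.69 to 0.31 for Fcgr4 and -0.36 to 0.10 for Fcer1g between the organs of Δβ. The cause was not tested. Over all genes, 12 passed in SP, against 457 in DESeq2 (143 higher and 314 lower), 4 in edgeR and 1 to 1886 with 1 library left out. In BM 8 passed, against 3 to 37 under other settings and 1 to 13 with 1 library left out, and over both organs 17, against 6 to 422 and 4 to 58. Numbers did not pair the libraries across genotypes. With the replicate number as a block, 0 members passed in every comparison, the ratio of Fcgr3 to Fcgr2b differed by -0.58 in SP and -0.16 in BM (exact sign-flip p = 0.25 in both, the smallest that 3 pairs can give), and 2, 5 and 55 of all genes passed in SP, BM and over both organs. Fcgr1, with 4 to 164 reads per library, was below a minimum mean of 50 and was not tested there.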
